A study of Lolium perenne with 10 samples.

Results

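Leaves of perennial ryegrass (Lolium perenne), a grass of cool climates sown for pasture and lawns, were compared between seedlings left without water and seedlings given one of the study's temperature treatments. The comparison uses 4 of the 10 RNA-seq libraries of the series, 2 from drought and 2 from the group called title-heat here, chosen by their labels and by no measured value. No control library entered the comparison. Drought seedlings were 7 days old when water was withheld, and they stayed dry for 7 days. Title-heat seedlings were 14 days old and were treated for 12 h, so both groups were about 14 days old at harvest by the labels. Plants of all groups carry the genotype label WT, were raised in growth chambers at 22 °C in the light period of 16 h and 18 °C at night, and were pooled at 30 seedlings per library.

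The temperature of the title-heat group is not settled by its labels. Its titles say heat while its treatment field says cold, and the study used 4 °C and 42 °C. No temperature is therefore attached to it. Further notes in the labels name other species, Arabidopsis for the treatments and bermudagrass for the RNA extraction. The Arabidopsis note gives another length of drought and a recovery under control conditions after stress, and whether it applies to these seedlings is not stated. The labels do not say that the libraries of a group came from separate cultures, so p-values measure the spread between libraries, which may be technical.

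In a drying grass leaf, abscisic acid builds up, stomata close, and protective proteins such as dehydrins and other late embryogenesis abundant proteins are made while growth and photosynthesis slow. At high temperature, heat shock transcription factors switch on chaperones that hold and refold damaged proteins. At low temperature, CBF transcription factors switch on cold-protection genes, and cool-season grasses store fructans. These responses overlap in part, since heat, cold and drought can all lower the water content of a leaf. None of these genes could be looked up here, because the counts are given for 46394 assembled sequence clusters whose identifiers are not paired with gene names (0 matched the 56406 genes of the Kyuss_2.0 reference table). Responses are therefore described by groups of clusters, called genes below, and the leaf label could not be checked against marker genes.

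The 4 libraries had similar depth and held reads from similar numbers of genes. Total counts were 11319380 and 11398828 in drought and 11425066 and 11008169 in title-heat. Genes with at least 10 counts numbered 18638 and 18802 in drought and 18198 and 17742 in title-heat, so both drought libraries lay above both title-heat libraries. The 100 most-read genes of each library held 44.8% and 44.0% of its counts in drought and 43.3% and 44.9% in title-heat, and these ranges overlapped. With 2 libraries against 2, an exact two-sided permutation test cannot give a p below 0.333, so such single values were not tested. Among the 19239 genes tested, log2 levels correlated at r = 0.934 between the drought libraries, 0.968 between the title-heat libraries and 0.793 to 0.814 between libraries of different groups, a description across genes that are not independent. The drought pair was the less alike, with 2499 genes at least 2-fold apart between its libraries against 1702 for title-heat.

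A large part of the leaf transcriptome differed between the drought and title-heat groups, with similar numbers of genes in each direction. Of 19239 genes tested, 6176 (32.1%) were called with edgeR (quasi-likelihood test), a call being a Benjamini-Hochberg adjusted p below 0.05. Drought had the higher level in 3228 of them (16.8% of genes tested) and title-heat in 2948 (15.3%). In each called gene both libraries of 1 group lay above both of the other. This was also true of 7434 genes that were not called, and so of 13610 (70.7%) of all genes tested. The drought-higher genes had a median of 16.0 CPM (counts scaled to sequencing depth) in drought and 4.82 CPM in title-heat, and the title-heat-higher genes had 22.1 CPM in title-heat and 7.42 CPM in drought. Differences in bulk leaves can come from fewer cells of a type or from less RNA per cell, which cannot be told apart here. The count of calls rested on the close agreement of the title-heat pair, since it was 1872 or 1536 when title-heat replicate 1 or 2 was left out, against 7290 and 6878 without drought replicate 1 or 2.

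Differences among the called genes were often large. Ratios were taken between group means of CPM, with a group at 0 counts in both libraries set at the CPM of 3 counts per library, so ratios of such genes are lower bounds. The drought-higher genes had a median ratio of 3.30, with the middle of the distribution, from the lower to the upper quartile, between 2.12 and 6.13. For the title-heat-higher genes the median ratio was 2.94, with quartiles of 1.93 and 6.30. Taken in either direction, the median ratio was 1.60 over all genes tested and 1.34 over genes not called. Of the genes not called, 2299 differed at least 2-fold. At least 2-fold differences were seen in 2547 drought-higher and 2132 title-heat-higher genes, at least 8-fold in 615 and 565, and at least 32-fold in 110 and 117. A stricter test asks whether a difference exceeds 2-fold rather than 0 (edgeR's glmTreat), and 2168 genes (11.3%) passed it at an adjusted p below 0.05, 1100 higher in drought and 1068 higher in title-heat. Of this stricter count, 720 and 593 were left without title-heat replicate 1 or 2.

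**Figure D1:**
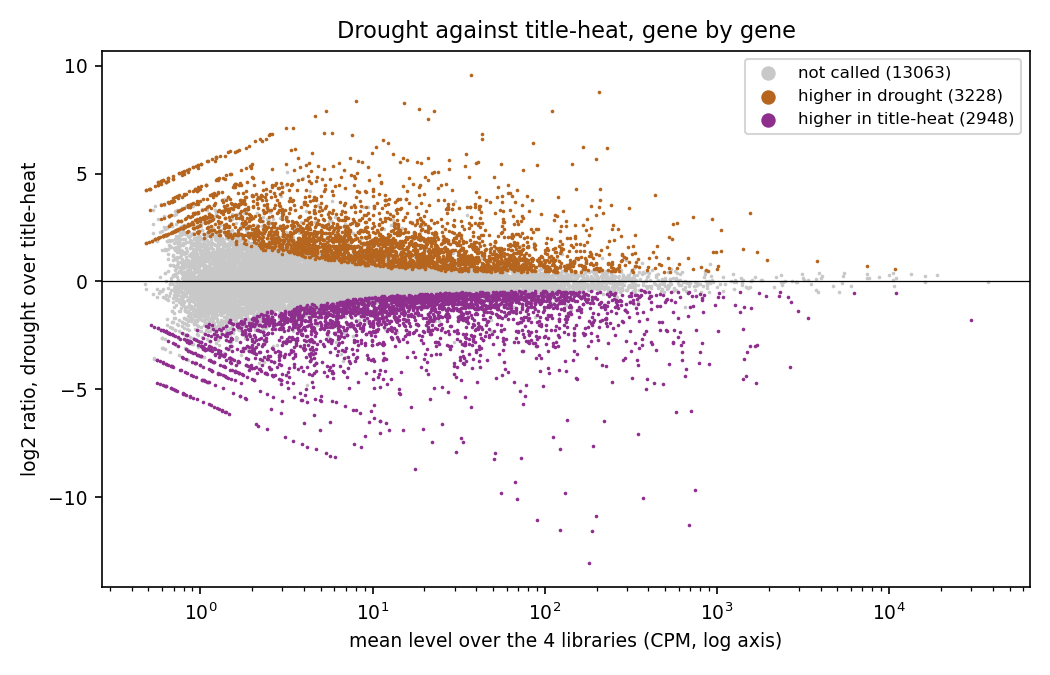
Each point is one of the 19239 genes tested, placed by its mean level over the 4 libraries (CPM, log axis) and by the log2 ratio of drought over title-heat, with groups at 0 counts set at 3 counts per library. The 3228 genes called higher in drought lie above 0 and the 2948 called higher in title-heat below, and the most extreme ratios of well-expressed genes lie on the title-heat side.

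The balance of directions changed with the transcript level. Below a mean of 1 CPM over the 4 libraries, 195 genes were called higher in drought and 100 in title-heat, and between 1 and 10 CPM the counts were 1351 and 1096. From 10 to 100 CPM they were nearly even, at 1428 and 1344. Abundant transcripts leaned to title-heat, with 244 against 378 between 100 and 1000 CPM and 10 against 30 at 1000 CPM and over. The percentage of genes called was 27.1% below 1 CPM, 24.7% between 1 and 10 CPM, 40.1% between 10 and 100 CPM, 50.9% between 100 and 1000 CPM and 38.5% at 1000 CPM and over. The value below 1 CPM depends on the filter, which a gene of that level can pass through the group where it is higher. With the filter 295 of 1089 such genes were called, and without it 350 of 11594. The 27.1% is therefore not comparable with the other classes. Over the same classes the median standard error of the log2 difference was 0.81, 0.46, 0.19, 0.15 and 0.14. The lean of abundant genes kept its direction when libraries were scaled by total counts in place of TMM factors, but shrank to 298 against 312 and to 21 against 24. It also kept its direction with any of the 4 libraries left out, with 94 against 157 and 7 against 13 when title-heat replicate 1 was left out, and 80 against 138 and 6 against 11 for title-heat replicate 2. The lean of the weaker transcripts did not hold in this way, since between 1 and 10 CPM the counts turned to 195 against 232 without title-heat replicate 2. Below 1 CPM, edgeR called 0 genes when title-heat replicate 1 or 2 was left out, and at an unadjusted p below 0.05 there were 129 higher in drought and 126 in title-heat for the former and 125 and 141 for the latter.

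**Figure D2:**
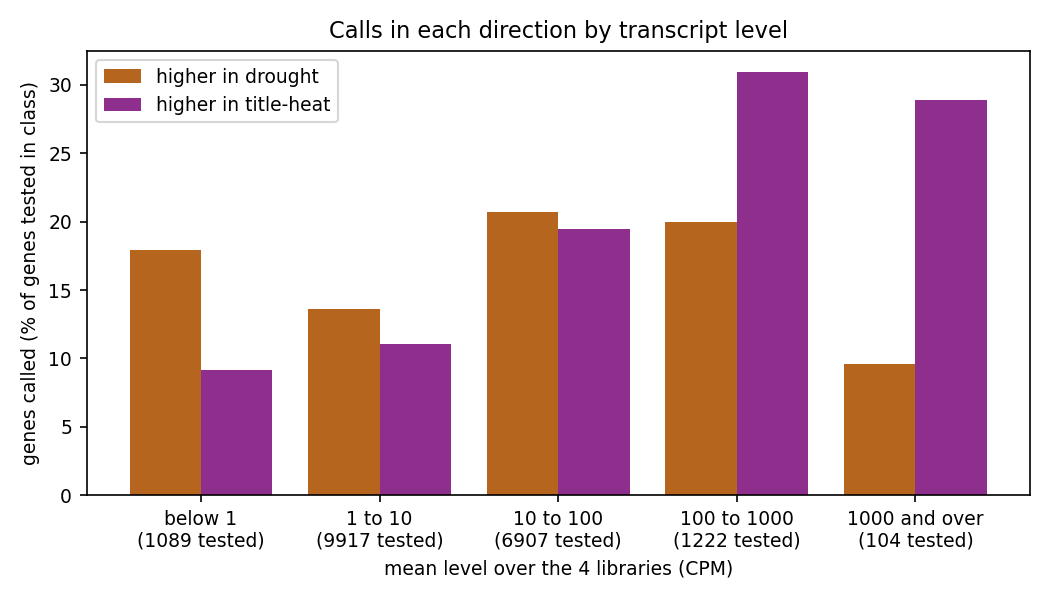
Bars give the percentage of tested genes called higher in drought or in title-heat (y axis) in 5 classes of mean level over the 4 libraries (x axis, CPM), with the number tested under each class. Title-heat bars exceed drought bars above 100 CPM, where 244 and 10 genes were higher in drought and 378 and 30 in title-heat. The height of the bars below 1 CPM depends on the filter.

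Among the 100 most abundant genes, with mean levels of 1022 to 37289 CPM, 9 were higher in drought and 28 in title-heat, against 16.8% and 15.3% of all genes tested. The drought-higher ones differed by 1.51-fold to 9.0-fold, and the title-heat-higher ones by 1.39-fold to 25.8-fold. These 100 genes held 43.7% and 42.8% of all counts in the drought libraries and 42.6% and 44.3% in the title-heat libraries, so the total share of this abundant class did not separate the groups. The 63 others were not called, and for 68 of the 100 the 95% interval of the difference lay wholly within 2-fold. Total-count scaling gave 18 higher in drought and 24 in title-heat, the counts were 14 and 39 without drought replicate 1 and 16 and 34 without drought replicate 2, and they were 4 and 14 when title-heat replicate 1 was left out and 3 and 12 for title-heat replicate 2.

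The most-read genes were largely shared. Ranked by mean CPM in each group, 7 of the 10 top genes, 73 of the top 100 and 723 of the top 1000 were the same in drought and title-heat. Top 100 genes that fell beyond rank 1000 in the other group were on one side only. A set of 8 genes stood among the 100 most-read in title-heat, at 1247 to 2715 CPM, and beyond rank 1000 in drought, at 0.54 to 119 CPM, and the highest adjusted p among them was 0.00225 by edgeR. They were 13.7-fold to 2528-fold higher in title-heat. The ranks that picked these genes come from the same libraries, so large ratios and small p-values follow in part from the choice. In the reverse direction the number was 0, and the top 100 of drought all ranked at 897 or better in title-heat.

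A larger group of well-expressed genes had a far higher level in one group. Genes called, at 100 CPM or more in the higher group and at least 8-fold apart, numbered 44 for drought and 82 for title-heat, with thresholds chosen after the values were seen. Levels across all groups of the series are given on one scale, with TMM factors over all 10 libraries. On that scale the 44 drought-higher genes had medians of 226 and 228 CPM in the drought libraries, 13.4 and 13.1 in title-heat, 9.90 and 10.5 in control, 8.89 and 11.6 in submergence and 18.3 and 17.0 in title-cold, the other temperature group. The 82 title-heat-higher genes had medians of 401 and 396 CPM in the title-heat libraries, 18.1 and 16.5 in drought, 20.1 and 22.6 in control, 25.2 and 23.5 in title-cold and 16.1 and 20.3 in submergence. The values in drought and title-heat describe the choice of genes, whereas the other 6 libraries were not used in it. In those 6 the medians stayed near the lower group for both lists. The genes were picked as far higher in drought or in title-heat, so this position follows in part from the choice. Control was nearer to title-heat than to drought in 41 of the 44 and nearer to drought than to title-heat in 72 of the 82. Over all genes tested, control was nearer to title-heat in 56.1% and to drought in 43.9%. No such share was taken for title-cold or submergence, nor for genes matched in level, so the part of the choice in these counts was not tested. Title-cold and submergence were nearer to title-heat in 37 and 39 of the 44. Of the 82, title-cold was nearer to drought in 59 and to title-heat in 23, and submergence in 70 and 12. With a library left out in turn, the numbers of such genes ranged from 38 to 50 and from 78 to 97.

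**Figure D3:**
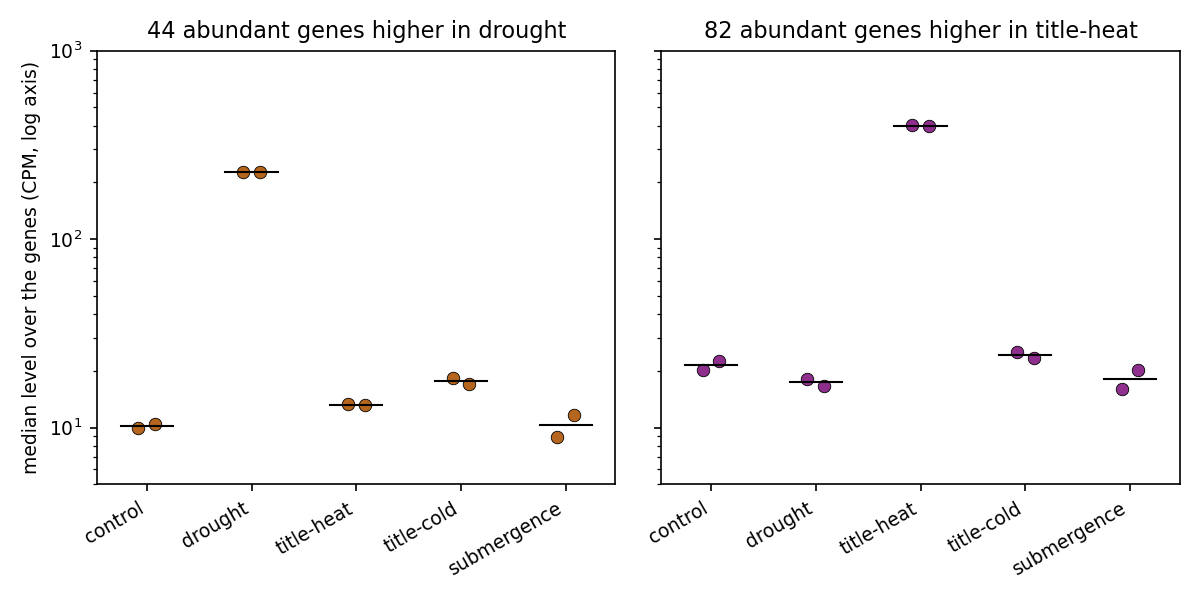
Points are single libraries, placed at their median CPM (log axis) over the 44 abundant genes at least 8-fold higher in drought (left) or the 82 at least 8-fold higher in title-heat (right), and lines are means of 2 libraries. Each list is high in the group that defines it, at 226 and 228 or 401 and 396 CPM, and below 26 CPM in every library of the other groups.

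These abundant lists took up unequal parts of the RNA. The 82 title-heat genes held 5.24% and 5.29% of all counts in title-heat, 0.310% and 0.336% in drought, 0.618% and 0.566% in control, 1.76% and 1.76% in title-cold and 0.495% and 0.501% in submergence. In the drought libraries the 44 drought genes held 1.36% and 1.39%, against 0.0974% and 0.0901% in title-heat, 0.115% and 0.130% in control, 0.305% and 0.386% in title-cold and 0.211% and 0.201% in submergence. The title-cold share was thus above control for both lists, though far below the group that defined each.

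The same shares were taken over all called genes, where the drought and title-heat values describe the choice of genes. The other groups were not used in that choice, but a position of theirs nearer to the lower group follows in part from it. The 3228 drought-higher genes held 20.5 ± 0.72% (SD, n = 2) of all counts in drought, 8.03 ± 0.33% in title-heat, 9.78 ± 0.36% in control, 10.8 ± 0.55% in title-cold and 16.1 ± 0.034% in submergence. The 2948 title-heat-higher genes held 33.9 ± 0.59% in title-heat, 13.7 ± 0.47% in drought, 19.6 ± 0.026% in control, 24.0 ± 0.27% in title-cold and 20.8 ± 0.097% in submergence. Control lay nearer to title-heat for the drought-higher genes. For the title-heat-higher genes it lay between the groups and nearer to drought. Control, title-cold and submergence all had shares of both lists between those of drought and title-heat. Counts were less concentrated in submergence, where the 100 most-read genes held 29.2 ± 1.2% (SD, n = 2). They held 44.4 ± 0.57% in drought and 44.1 ± 1.2% in title-heat. The part of this in the shares was not tested.

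**Figure D4:**
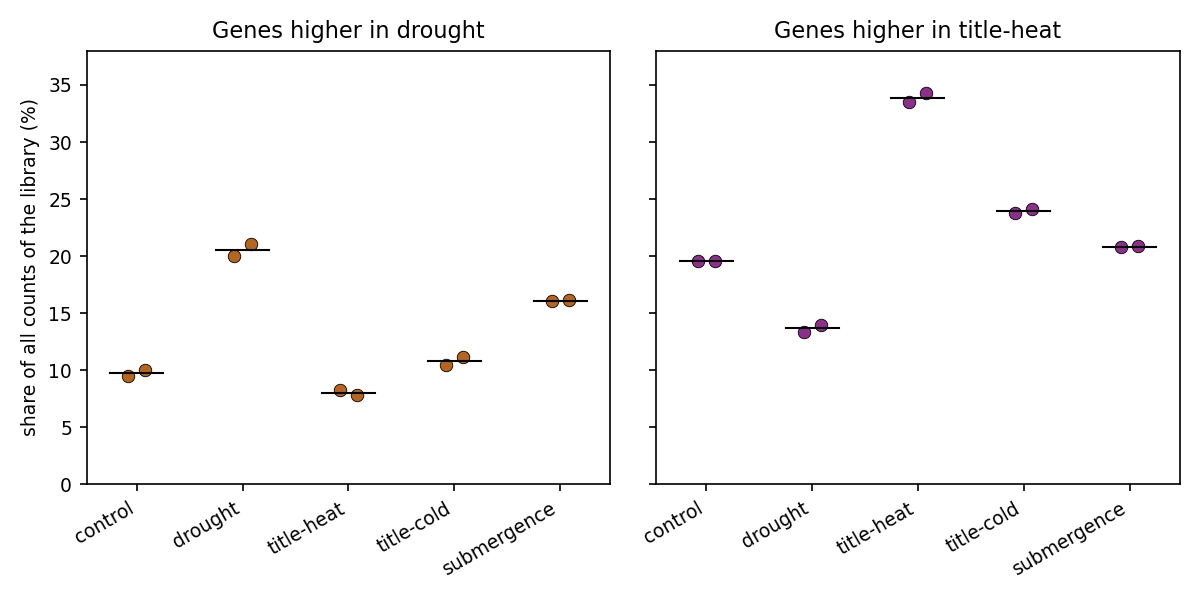
Points are single libraries, placed at the share of their counts (y axis, %) held by the 3228 genes called higher in drought (left) or the 2948 called higher in title-heat (right), and lines are means of 2 libraries. The left list goes from 8.03% in title-heat to 20.5% in drought and the right list from 13.7% in drought to 33.9% in title-heat, with the other groups in between. The drought and title-heat values describe the choice of genes.

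The naming rule took 2 genes higher in each group, the one with the largest ratio and the one with the largest difference in CPM. The cluster c151249.graph_c0 had 761 and 1015 counts in the drought libraries and 0 and 2 in title-heat. Both drought libraries were thus high and both title-heat libraries at or near 0. It was also at 0 in both control and both submergence libraries, while title-cold had 269 and 354 counts, a level of 21.8 ± 2.7 CPM against 90.5 ± 16.4 CPM in drought (SD, n = 2). Its mean CPM was 754.1-fold higher in drought, and counts summed over the libraries of each group and scaled to depth gave a ratio of 791.8 (95% counting interval from 218.9 to 6543). The fitted log2 difference was 9.46 (adjusted p = 0.000168 by edgeR), and it was 8.46 without title-heat replicate 1. It was 12.75 without title-heat replicate 2, a value set in part by the prior count, since the remaining title-heat library is at 0. Drought and title-cold were the groups in which this transcript was read well above 0.

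At the other extreme, c168100.graph_c0 had 4251 and 3429 counts in title-heat and 1 and 0 in drought. Mean CPM was 8489.6-fold higher in title-heat, and the ratio of summed, depth-scaled counts was 8614 with a 95% counting interval of 1545 to 340259. The fitted log2 difference of drought from title-heat was −12.73 (adjusted p = 4.97e-05 by edgeR). It was −14.97 without drought replicate 1, where the remaining drought library is at 0, and −11.88 without drought replicate 2. The other groups did not have the transcript at a steady level. Control libraries had 2007 and 418 counts, title-cold 6675 and 2884, and submergence 187 and 665, so libraries of one group differed several-fold, whereas both drought libraries were at or near 0. Against control, drought was lower by edgeR (adjusted p = 0.00213), while title-heat did not pass the test (adjusted p = 0.183).

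The most-read gene of title-heat was c167688.graph_c0, with 455934 and 524773 counts there and 120849 and 201750 in drought. It stood at rank 1 in title-heat and rank 6 in drought. Its level was 56632 ± 9488 CPM in title-heat, 45338 ± 4728 in title-cold, 38247 ± 12089 in control, 16407 ± 5485 in drought and 9153 ± 1744 in submergence (SD, n = 2). Both title-heat libraries lay above all others, title-cold and control overlapped, and the drought and submergence libraries lay below all 6 of those. The log2 difference between drought and title-heat was −1.78 with a standard error of 0.27 (adjusted p = 0.00684 by edgeR), and it lost its call without title-heat replicate 2 (log2 difference of −1.64, adjusted p = 0.0751).

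Among drought-higher genes the largest difference in CPM belonged to c156546.graph_c0, at rank 7 in drought and rank 13 in title-heat. Counts were 151234 and 157088 in drought and 91007 and 91030 in title-heat, without overlap. Levels were 15737 ± 82.3 CPM in drought, 10476 ± 723 in title-heat, 8625 ± 1155 in control, 2410 ± 550 in submergence and 780.3 ± 84.6 in title-cold (SD, n = 2). The log2 difference of 0.59 had a standard error of 0.13 (adjusted p = 0.0165 by edgeR). This call was lost without title-heat replicate 1 or 2 (adjusted p = 0.255 and 0.202) and with all 10 libraries in the fit (adjusted p = 0.0614).

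**Figure D5:**
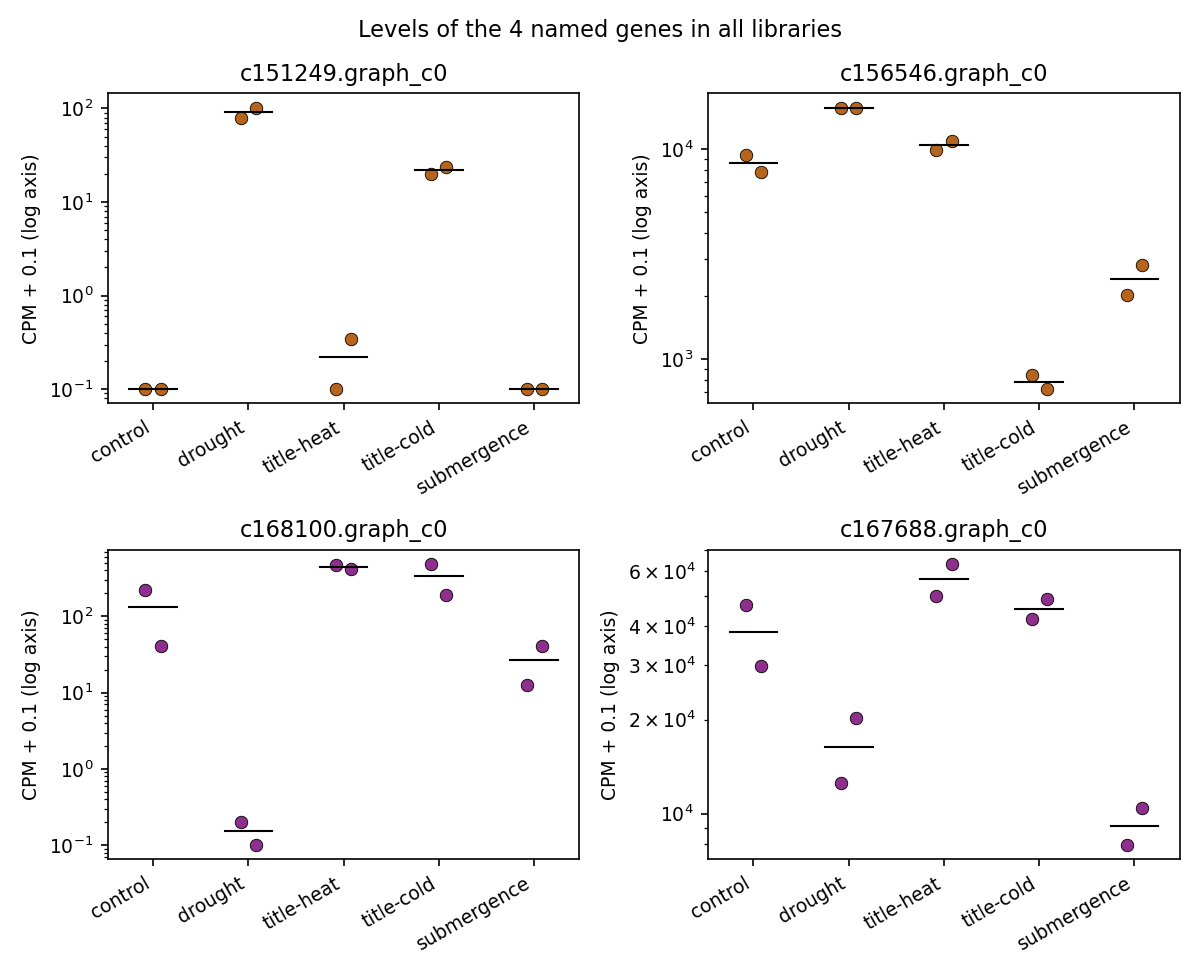
Points are single libraries and lines are means of 2 libraries, in CPM plus 0.1 on a log axis, for the 4 named genes in the 5 groups. The upper genes are higher in drought than in title-heat, the lower genes the reverse, with c151249.graph_c0 also read in title-cold and c168100.graph_c0 near 0 in drought alone.

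Few genes were read in one of the groups and not in the other. With at least 10 counts in both libraries of one group and 0 in both of the other, there were 106 genes in drought and 91 in title-heat. Of these 96 and 88 were called, where 32.1% of all genes tested were. The rule itself asks for a large difference, so these calls follow from the choice of genes. They were weak, with medians of 1.93 and 2.64 CPM and maxima of 21.0 and 44.3 CPM among those tested. A count of 0 allows up to 3 counts in a library, or 0.249 to 0.296 CPM at these depths, and covers counting error only. Most had reads elsewhere in the series. Of the 106 drought genes, 74 had reads in control, 57 in submergence and 72 in title-cold, and 14 had none in these groups. For the 91 title-heat genes the numbers were 60, 64 and 67, and 13 had none. The same shares were not taken over all genes, so these numbers are descriptions.

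Genes that were not called are not all alike between the groups. The 95% interval of the log2 difference lay wholly within 2-fold in either direction for 4982 genes (25.9%), which had a median of 26.1 CPM. Of these, 364 were called all the same, with small differences. For 8445 genes the difference was neither called nor bounded within 2-fold, so the depth and the number of libraries did not settle them. At a mean of 1 to 10 CPM only 8.29% of genes were bounded in this way, against 49.4% from 10 to 100 CPM and 66.3% at 1000 CPM and over. Without title-heat replicate 1 or 2 the number within 2-fold was 2801 or 2896.

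With TMM factors, control leaves lay nearer to the lower of the groups in most genes of each list. Control took no part in choosing the genes. The genes were picked as higher in drought or in title-heat, so this position follows in part from the choice, and that part was not tested. For the drought-higher genes the control mean was nearer to title-heat in 2269 of 3228 (70.3%), against 56.1% over all genes tested, and the median log2 difference from control was 1.39 for drought and −0.18 for title-heat. Control lay below both groups in 1386 of these genes, between them in 1426 and above both in 416. For the title-heat-higher genes control was nearer to drought in 1613 of 2948 (54.7%), against 43.9% over all genes tested, with median log2 differences from control of −0.62 for drought and 0.91 for title-heat. In 816 of them control lay below both groups, in 1569 between and in 563 above both. The majority in the title-heat list turned with upper-quartile factors (48.8%), while the drought list kept it under each scaling tried (65.5% to 70.3%).

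Each group was also set against control in one fit over all 10 libraries. These comparisons share the control libraries and use the drought or title-heat libraries that chose the genes, so the counts are descriptions. In drought against control, 1950 of the 3219 drought-higher genes in that fit were called higher and 79 lower, where 15.2% and 11.7% of all 27571 genes were. In title-heat against control, 490 of the same genes (15.2%) were called higher and 733 (22.8%) lower, beside 12.3% and 8.33% of all genes. The 27571 genes of this fit go beyond the 19239 tested between drought and title-heat, so their shares are not a matched background. Among genes tested there and not called, 14.0% were higher and 12.1% lower in drought against control. In title-heat against control these shares were 11.1% and 8.73%. No share was taken over called and uncalled genes together. The 79 genes numbered 128 with upper-quartile factors, 49 without control replicate 2 and 45 without drought replicate 2. The 490 were 326 without control replicate 2 and 313 without title-heat replicate 1, and the 733 were 432 and 414 without title-heat replicate 1 or 2.

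For the 2948 title-heat-higher genes, title-heat against control gave 1372 called higher (46.5%) and 74 lower (2.51%). Over all genes of the fit, which include genes not tested between drought and title-heat, these shares were 12.3% and 8.33%. Drought against control gave 343 higher (11.6%) and 1199 lower (40.7%), beside 15.2% and 11.7% of all genes. Lower levels in drought than in control were thus called in 40.7% of the title-heat-higher genes, beside 11.7% of all genes. Lower levels in title-heat than in control were called in 22.8% of the drought-higher genes, beside 8.33% of all genes. The 74 became 137 with upper-quartile factors, 132 with total counts, 41 and 24 without control replicate 1 or 2, and 16 and 18 without title-heat replicate 1 or 2. The 343 became 227 without control replicate 2.

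Submergence against title-cold shares no library with drought and title-heat. In it, 924 (28.7%) of the 3219 drought-higher genes were called higher in submergence and 689 (21.4%) lower, with a median log2 difference of 0.08. Of the title-heat-higher genes 690 (23.4%) were higher and 853 (28.9%) lower, with a median of −0.11. Over all genes of the fit 31.3% were called higher and 17.4% lower, and among genes not called between drought and title-heat 19.6% and 19.4%. Called genes of both lists thus moved in both directions there, at median differences close to 0. Without submergence replicate 1, 459 of the drought-higher genes were lower in place of 689.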

How the data were processed

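RNA-seq of leaves gave read counts per assembled cluster. The authors deposited whole-number counts. The submitters' processing notes list RSEM and DESeq 1.10.1 but not what each did. Counts from RSEM would be rounded estimates in which reads of similar sequences are shared out. Assembly, aligner and strand setting: not given in the sources used here. The table's name also mentions bermudagrass and cold, and its columns match this series' sample descriptions.

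Here, genes were filtered with filterByExpr (minimum count 10, minimum total 15) on the 4 libraries, which left 19239 of 46394 genes (41.5%) with at least 99.64% of each library's counts. TMM factors and a quasi-likelihood model with robust dispersions were fitted to these libraries alone (edgeR 4.0.16, R 4.3.3, residual degrees of freedom 2). Their common dispersion of 0.0669 is a coefficient of variation of 25.9%. Replicates differed by more than sampling noise (chi-square per degree of freedom of 19.7 for drought and 7.05 for title-heat). Standard errors are the unshrunken log2 difference over the square root of F. Levels for all groups used TMM factors over 10 libraries, and log2 levels a prior count of 2. Alternatives included DESeq2 1.42.0 and limma-voom (limma 3.58.1).

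Named genes were called, had at least 5 CPM where higher, did not overlap between groups, and had the largest ratio or difference of mean CPM in their direction. Groups of genes and comparisons were chosen with earlier results of these data known. Intervals cover counting error only where called counting intervals.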

Additional observations from a re-analysis of the deposited data

How the results depend on the processing

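Against 6176 genes called, 6187 were called with RLE factors, 6168 with upper-quartile factors, 6282 with total counts, 6096 without a filter, 6176 with a filter of 1 CPM in 2 libraries, 6107 with all 10 libraries in the fit, 5411 with DESeq2 and 6014 with limma-voom. Genes called in both fits had 0 opposite directions under each of these. Total counts moved the log2 difference of a gene by a median of 0.15 and gave 62.0% of calls higher in drought in place of 52.3%. They also gave 18 of the top 100 genes higher in drought in place of 9. With the replicate number as a replicate block, 4455 genes were called, 2308 higher in drought and 2147 in title-heat, 4366 of them shared with the unblocked fit, and c156546.graph_c0 lost its call (adjusted p = 0.0661). The labels give no pairing, and deviations of same-numbered libraries correlated at 0.00014.

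With each of the 4 libraries left out in turn, 1536 to 7290 genes were called, 742 to 3671 higher in drought and 794 to 3619 in title-heat. Calls of at least 2-fold numbered 742 to 2833 and 794 to 2582. The glmTreat count was 593 to 2870 and the count within 2-fold 2801 to 4854. Of the top 100 genes, 3 to 16 were higher in drought and 12 to 39 in title-heat. A lone library is assumed to vary like the remaining pair. The low values are those without a title-heat library, where the spread comes from the drought pair alone. The level classes, the abundant lists and the comparisons over 10 libraries were given alternatives chosen after seeing the data. The intervals of genes below 10 CPM were the widest, and the part of depth in this was not tested.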
